A study of Mus musculus with 8 samples.

Results

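The 43 genes described here encode the ligands, ligand-processing enzymes, latent-complex proteins, receptors, secreted binding proteins, SMADs and feedback regulators of transforming growth factor beta (TGF-beta), activin and bone morphogenetic protein (BMP) signalling. They were listed by name, but with earlier results of these data known. The shares of called genes given below therefore describe the list and do not test it. Of the 43, 41 had a matched probe on the array and 30 could be tested, among 17299 genes tested in all. Lrrc32 and Pcsk5 had no matched probe and were not analysed here. The cells were hematopoietic stem and precursor cells (HSPCs), prepared from femur and tibia marrow of Runx1 Δ/Δ mice on a mixed C57Bl/6 and 129SvJ background by depleting lineage-positive cells. After 2 days of culture with mSCF, hFlt3 ligand, hIL-11 and mIL-3, they were transduced with retrovirus and kept in puromycin (5 µg/ml) over 36 h to select transduced cells. The Pcgf1 shRNA group held 4 cultures and the Control shRNA group held 4 cultures, with 1 culture of each from each of 4 mice. Both groups carry the Runx1 Δ/Δ genotype, so the comparison describes Pcgf1 knockdown in Runx1-deficient cells, with 1 shRNA named against Pcgf1. Neither the driver of the Runx1 deletion nor the age of the mice is given in the sources used here.

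TGF-beta family ligands are secreted as precursors that proteases cleave, and several stay latent until released from a binding complex. An active dimer brings together type II and type I receptor kinases, which phosphorylate receptor SMADs; these join Smad4 and regulate genes in the nucleus, while inhibitory SMADs, SMURF ubiquitin ligases and SKI proteins restrain the signal. In blood-forming tissue TGF-beta is best known for holding stem cells in quiescence. Pcgf1 is a subunit of a variant Polycomb repressive complex that deposits ubiquitin on histone H2A, and its partner Kdm2b binds unmethylated CG dinucleotides.

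Each value below is a log2 signal, the log2 of a probe's processed signal on 1 array minus the log2 of that array's 75th percentile. It compares arrays for 1 probe and does not rank genes by abundance. The share of spots well above background was 54.8% to 62.0% per array, and no spot was saturated. Pcgf1 itself had log2 signals of -1.63, -1.64, -1.74 and -1.35 in Pcgf1 shRNA cells of mice 1 to 4, against -0.24, -0.23, -0.45 and -0.01 in Control shRNA cells. The groups did not overlap, and the log2 change of -1.36 (SE 0.12) had an adjusted p of 0.0197 in limma, leaving 39.0% of the control signal. Runx1 differed by 0.27 on the log2 scale (limma adjusted p = 0.473); whether its probe lies in the deleted part is not known here, so it does not check the genotype. In whole cultures, fewer cells of a type and less RNA per cell cannot be told apart.

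The cultures of the 2 groups also differed in markers of maturing blood cells. Of 8 neutrophil markers, 5 were well above background on all 8 arrays, and all 5 had a negative change, with a median of -1.78. None of the 5 passed without the mouse block, and 4 were lower at unadjusted p below 0.05 in limma. With the block 4 fell, namely Camp, S100a8, S100a9 and Mmp8. Ngp and Ltf were well above background on 0 of 4 Pcgf1 shRNA arrays and on 4 of 4 Control shRNA arrays, so they entered the test only through the Control shRNA group, and Retnlg was not above background on any array. Summed linear signal of the 7 tested markers, in units of the array's 75th percentile, was 11.9 to 45.3 in Pcgf1 shRNA cells and 85.1 to 234 in Control shRNA cells. That sum includes Ngp and Ltf, so its markers were partly selected for signal in Control shRNA cells. Of 9 progenitor markers Cd34 rose by 0.94 (limma adjusted p = 0.0251), and the list's summed signal was 60.5 to 77.4 in Pcgf1 shRNA cells against 48.4 to 50.8 in Control shRNA cells. All 6 erythroid and all 6 tested monocyte and macrophage markers had negative changes, with medians of -0.95 and -0.37. None of them passed without the block, where 1 in each list was at unadjusted p below 0.05 in limma, and with it the erythroid genes Klf1 and Ermap fell (adjusted p = 0.0483 and 0.0310). Of 8 stromal markers 2 were tested: Pdgfrb was higher by 0.69 without overlap (limma adjusted p = 0.244, or 0.0208 with the block) and Col1a2 changed by -0.34, while Col3a1, Pdgfra and Dcn were not above background on any array. Summed stromal signal was 0.621 to 0.835 in Pcgf1 shRNA cells and 0.554 to 0.708 in Control shRNA cells. Of 6 mast cell and basophil markers, 4 had negative and 2 positive changes, with a median of -0.24; Tpsb2 fell by 1.71 on the log2 scale (limma adjusted p = 0.0467) and Mcpt8 changed by 0.59 without passing. Of 3 tested T and NK cell markers Lck rose by 0.91 (limma adjusted p = 0.0339), and Cd3e and Nkg7 changed by -0.27 and -0.08. With the block Meis1 also rose among the progenitor markers, and Cma1 fell among the mast cell and basophil markers. Of 5 endothelial markers 3 were tested, with 2 positive changes and 1 negative, and Pecam1 rose with the block alone. The 6 megakaryocyte markers had 2 positive and 4 negative changes, with no pass in either fit. All 3 tested B cell markers had negative changes and none passed either fit. The part of these differences in the results below was not tested.

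Of the 30 tested genes, Gdf11, Ltbp3, Bmp1 and Acvr2b rose in Pcgf1 shRNA cells and none fell. They encode a ligand, a latent-complex protein, a processing protease and a type II receptor. The 4 make up 13.3% of the tested genes, where 0.595% of all genes tested rose and 0.168% fell (limma, Benjamini-Hochberg adjusted p below 0.05). Gdf11 entered the test only through the Pcgf1 shRNA group, since its probe was well above background on 2 of 4 Control shRNA arrays. The other 29 genes were well above background on all 8 arrays, and of these 3 rose, or 10.3%, where 0.561% of all such genes did. With mouse as a block 4 of the 29 rose, or 13.8%, where 2.79% of such genes did. With Gdf11 included the block gave 5 of 30, and none fell, where 2.91% of all genes rose and 2.42% fell. Before adjustment, 6 of the 29 genes were higher and 4 lower at p below 0.05 in limma, together 34.5%, where 11.8% of such genes were past that level in either direction. Their median log2 change was 0.05, against 0.00 over all such genes, with 15 positive and 14 negative changes. The change for every gene is plotted by role.

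**Figure D1:**
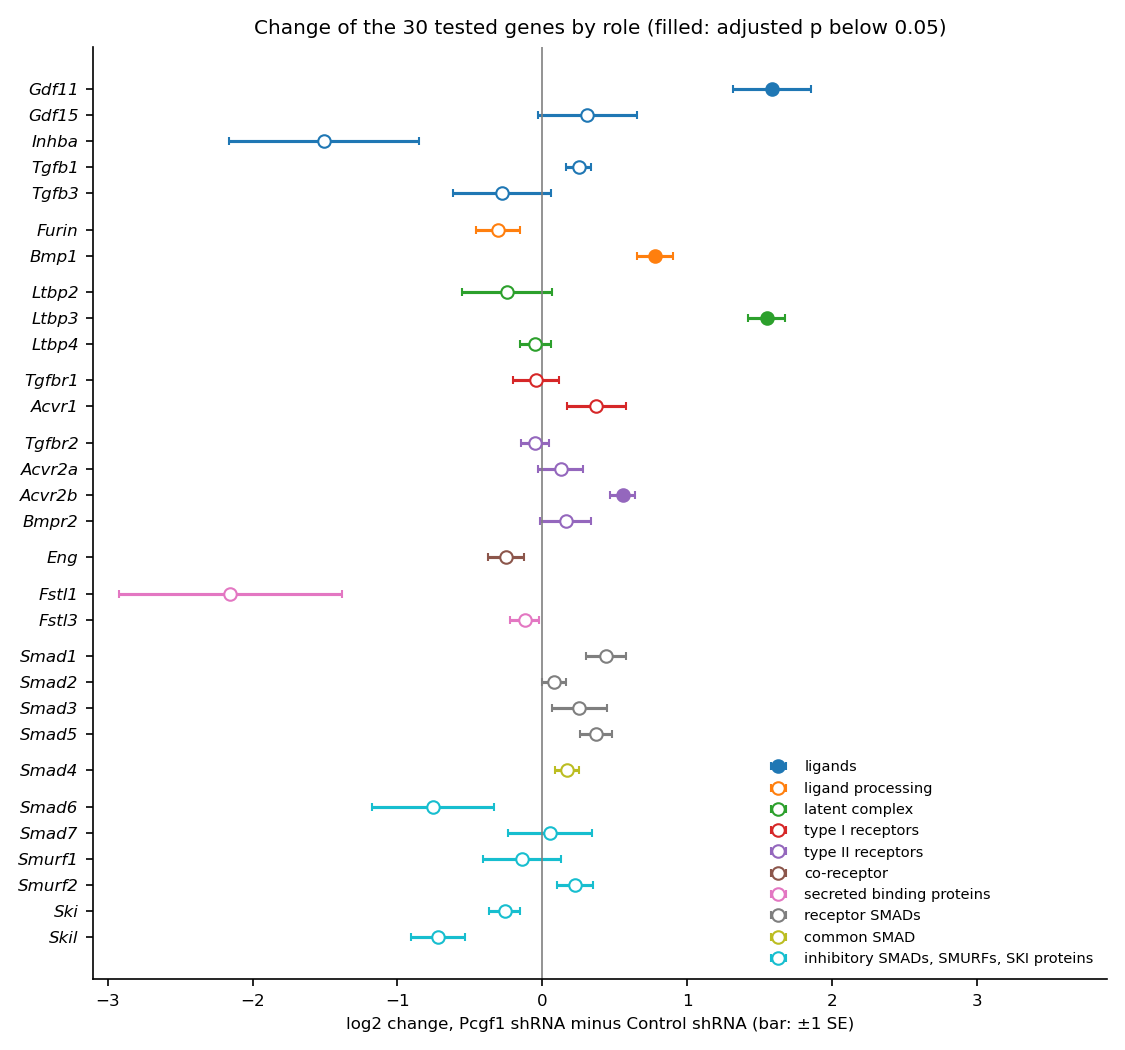
Log2 change (Pcgf1 shRNA minus Control shRNA, x axis) of each of the 30 tested genes, coloured by role, with bars of 1 SE from limma over 4 arrays per group. Filled circles mark Gdf11, Ltbp3, Bmp1 and Acvr2b, which rose; Fstl1 and Inhba lie farthest to the left and have wide bars.

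Among the 9 ligands, 5 were tested and 1, Gdf11, rose. Gdf11 is a ligand related to myostatin that signals through activin type II receptors. Its log2 signals were -4.64, -4.41, -4.53 and -3.43 in Pcgf1 shRNA cells and -5.57, -6.10, -5.69 and -6.01 in Control shRNA cells. Every Pcgf1 shRNA culture was above every Control shRNA culture. The fitted log2 change was 1.59 (SE 0.27, limma adjusted p = 0.0461), with 1.31 within slide 1 (mice 1 and 2) and 1.87 within slide 2 (mice 3 and 4). Since the probe was well above background on 4 of 4 Pcgf1 shRNA arrays and on 2 of 4 Control shRNA arrays, its other Control shRNA values are only bounds, and the size of the change and its call rest partly on background.

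Bmp1, despite its name, is a metalloprotease that cleaves procollagens and the propeptides of latent myostatin and Gdf11. Its log2 signals were -2.05, -2.41, -2.34 and -2.40 in Pcgf1 shRNA cells and -3.07, -3.31, -2.89 and -3.04 in Control shRNA cells. The groups did not overlap, and the log2 change was 0.78 (SE 0.12, limma adjusted p = 0.0354), or 1.72-fold. It was 0.96 within slide 1 and 0.60 within slide 2. Furin, the convertase that cleaves TGF-beta precursors, was lower in 4 of 4 mice. Its change of -0.31 did not pass (limma adjusted p = 0.474, or 0.0845 with mouse as a block).

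Ltbp3 encodes a latent TGF-beta binding protein, which holds latent TGF-beta in the extracellular matrix. Its brightest probe gave log2 signals of -0.43, -0.37, -0.60 and -0.45 in Pcgf1 shRNA cells and -2.12, -1.74, -2.29 and -1.91 in Control shRNA cells. The groups were far apart on this probe, with a log2 change of 1.55 (SE 0.13, limma adjusted p = 0.0197), or 2.93-fold, and changes of 1.53 within slide 1 and 1.57 within slide 2. The other Ltbp3 probe, well above background on all 8 arrays, gave -2.78, -3.31, -3.15 and -3.22 in Pcgf1 shRNA cells and -2.94, -3.34, -2.81 and -3.83 in Control shRNA cells. On that probe the groups overlapped and the change was 0.11 (SE 0.23, limma adjusted p = 0.889). The mean of both probes changed by 0.83 and was still called. Ltbp2 and Ltbp4, of the same family, changed by -0.24 and -0.05 and did not pass.

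Acvr2b is a type II receptor for activins, myostatin and Gdf11. Its log2 signals were -2.24, -2.23, -2.09 and -2.44 in Pcgf1 shRNA cells, against -2.77, -2.80, -2.78 and -2.85 in Control shRNA cells. The Control shRNA cultures lay within a narrow range, below all Pcgf1 shRNA cultures, and the log2 change of 0.55 (SE 0.09, limma adjusted p = 0.0415) is 1.47-fold. It was 0.56 within slide 1 and 0.55 within slide 2. The other tested type II receptors were Acvr2a (0.13), Bmpr2 (0.16) and Tgfbr2 (-0.05), all with overlapping groups. Acvr1 and Tgfbr1, type I receptors, changed by 0.37 and -0.04 and did not pass.

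These 4 calls changed when arrays were left out and, for 3 of them, with another background correction. Without both arrays of mouse 1, mouse 2 or mouse 3, none of the 4 passed in the fit without the block, while without mouse 4 Gdf11, Ltbp3 and Acvr2b did and Bmp1 had an adjusted p of 0.0506 in limma. With mouse as a block, Ltbp3 passed without mouse 1, mouse 3 or mouse 4, Bmp1 without mouse 3, and no gene without mouse 2. In the fit without the block and with 1 array left out, Ltbp3 did not pass without the Pcgf1 shRNA array of mouse 2 or mouse 3, and the other 3 genes passed only without the Pcgf1 shRNA array of mouse 4. Over the refits without a mouse the changes stayed positive, at 1.26 to 1.81 for Gdf11, 1.50 to 1.61 for Ltbp3, 0.70 to 0.85 for Bmp1 and 0.51 to 0.60 for Acvr2b. After a normal-exponential background correction Ltbp3 changed by 1.20 (limma adjusted p = 0.0106), whereas Gdf11 at 0.26 (adjusted p = 0.324), Bmp1 at 0.42 (adjusted p = 0.118) and Acvr2b at 0.27 (adjusted p = 0.278) did not pass. The plot of signal by array shows these genes and 4 others.

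**Figure D2:**
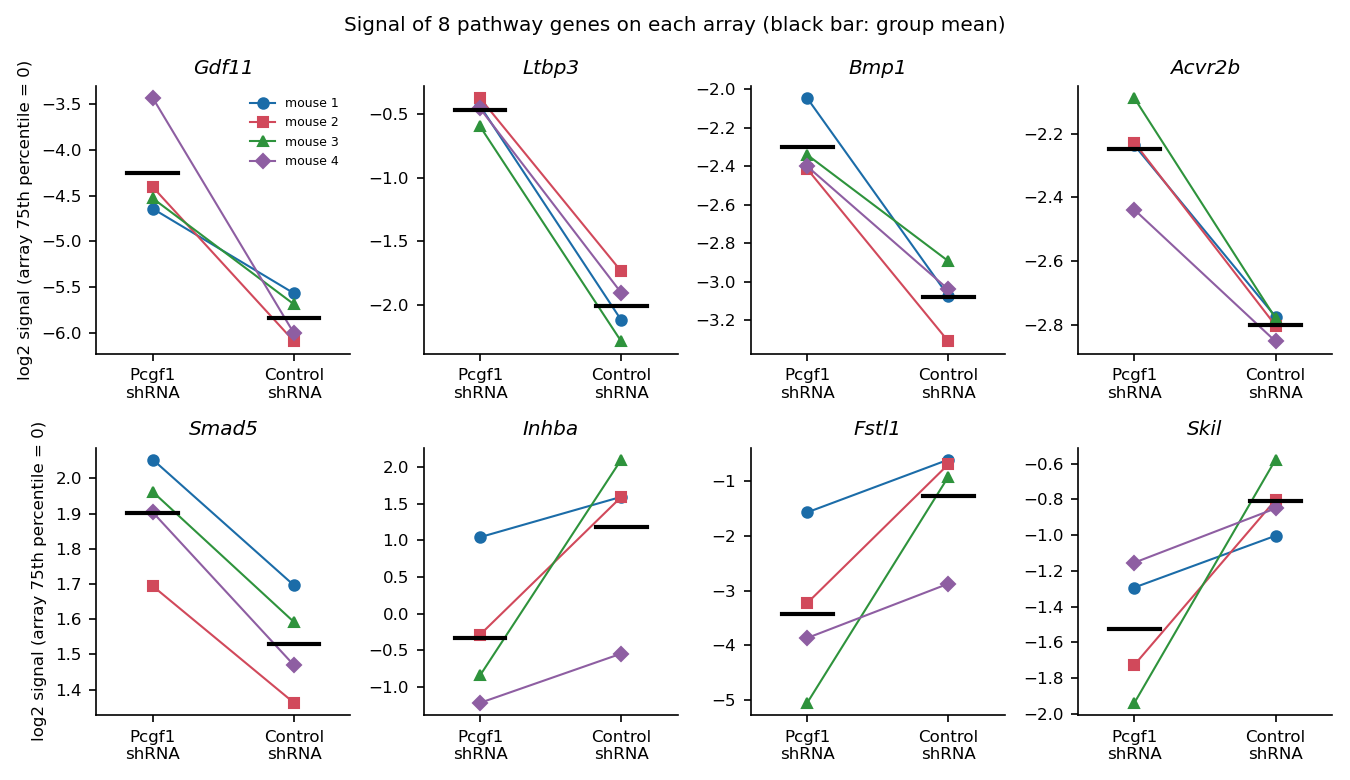
Log2 signal (y axis, 0 is the array's 75th percentile) of 8 genes in Pcgf1 shRNA and Control shRNA cultures, 1 symbol and colour per mouse, with lines joining cultures of 1 mouse and black bars at group means. The upper row shows the 4 genes that rose, with groups apart. The lower row shows Smad5, with near-parallel lines, and Inhba, Fstl1 and Skil, with the steepest lines in mouse 3; the y axes differ between panels.

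Stretches of the promoters of Gdf11, Ltbp3 and Acvr2b are given because Kdm2b, the CG-binding partner of Pcgf1, binds unmethylated CG. Each is the 250 bases before a transcript start in RefSeq's GRCm38.p6 promoter table, 5′ to 3′ on the gene's strand, with every CG in capitals. CG is its own reverse complement, so both strands hold the same count, and no binding was measured here. Gdf11 lies on the minus strand at chr10:128891719-128891968, Ltbp3 on the plus strand at chr19:5740650-5740899 and Acvr2b on the plus strand at chr9:119401928-119402177.
Gdf11: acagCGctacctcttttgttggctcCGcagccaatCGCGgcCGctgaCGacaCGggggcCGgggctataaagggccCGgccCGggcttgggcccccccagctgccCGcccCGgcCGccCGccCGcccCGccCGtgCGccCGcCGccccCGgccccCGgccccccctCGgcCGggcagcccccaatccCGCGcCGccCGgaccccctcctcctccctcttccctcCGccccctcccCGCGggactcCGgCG
Ltbp3: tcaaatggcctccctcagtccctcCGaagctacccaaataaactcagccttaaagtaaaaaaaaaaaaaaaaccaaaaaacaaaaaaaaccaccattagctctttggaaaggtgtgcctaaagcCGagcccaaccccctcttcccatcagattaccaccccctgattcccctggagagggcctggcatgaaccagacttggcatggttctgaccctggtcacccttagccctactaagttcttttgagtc
Acvr2b: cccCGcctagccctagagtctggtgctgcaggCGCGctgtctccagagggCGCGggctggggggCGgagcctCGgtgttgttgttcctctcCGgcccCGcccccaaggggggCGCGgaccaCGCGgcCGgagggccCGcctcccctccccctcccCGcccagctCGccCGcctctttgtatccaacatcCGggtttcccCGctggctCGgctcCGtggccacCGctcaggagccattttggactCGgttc
The Gdf11 window held 33 CG and 81.2% C plus G, a count that 4.03% of the 32851 windows of this length in the table reach. Acvr2b had 24 CG and 72.8% C plus G, a count that 12.0% of windows reach. Ltbp3 had 2 CG and 47.2% C plus G, and 81.2% of windows held at least as many. The median was 6 CG over all windows and 21.5 over the 44 windows of the 34 listed genes with an entry, which ranged from 1 to 53. The table does not say which transcript a start belongs to, and it holds no entry for Bmp1. The Acvr2b window lies inside the gene as RefSeq annotates it, downstream of its outermost start. Which start the transcripts measured by Ltbp3's array probes come from is not known here.

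Smad5, a receptor SMAD of the BMP branch, was higher in every mouse by a similar amount. Its log2 signals were 2.05, 1.69, 1.96 and 1.90 in Pcgf1 shRNA cells and 1.70, 1.36, 1.59 and 1.47 in Control shRNA cells. The groups overlapped because the cultures differed by mouse, and the change of 0.37 did not pass without the block (limma adjusted p = 0.216) but did with it (adjusted p = 0.0364). The 2 other Smad5 probes gave 0.27 and 0.51, neither past the test. All 4 tested receptor SMADs had positive changes, including Smad1 at 0.44, Smad3 at 0.26 and Smad2 at 0.08, none past the test. Smad4, their common partner, changed by 0.17 and was higher in 4 of 4 mice. Smad9, the remaining receptor SMAD, was not above background on any array.

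Inhba, which encodes the activin A subunit, was lower in 4 of 4 mice by very different amounts. Its log2 signals were 1.04, -0.29, -0.84 and -1.21 in Pcgf1 shRNA cells, against 1.59, 1.59, 2.10 and -0.54 in Control shRNA cells. The groups overlapped through mouse 4, whose Control shRNA culture was low, and the change of -1.51 (SE 0.66) did not pass (limma adjusted p = 0.409, or 0.0937 with mouse as a block). Fstl1, a secreted glycoprotein related to follistatin, was also lower in 4 of 4 mice, at -1.57, -3.23, -5.05 and -3.87 in Pcgf1 shRNA cells and -0.61, -0.69, -0.92 and -2.87 in Control shRNA cells. Its change of -2.15 (SE 0.77) had an adjusted p of 0.308 in limma, and 0.0802 with the block. All cell marker lists except the progenitor, stromal and endothelial ones also had mostly negative changes in these cultures, as given above. The part of those lists in these values was not tested.

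Skil, a SKI-family repressor of SMAD transcription that TGF-beta itself induces, had log2 signals of -1.29, -1.73, -1.94 and -1.15 in Pcgf1 shRNA cells and -1.0, -0.80, -0.58 and -0.85 in Control shRNA cells. The groups did not overlap, yet the change of -0.72 (SE 0.18) did not pass (limma adjusted p = 0.147, or 0.0960 with the block). A second Skil probe gave -0.55. Skil was the single gene of the 29 lower without overlap, 3.45%, where 2.85% of all genes above background on all 8 arrays were. Ski gave -0.26, -0.30 and -0.37 on its 3 probes, with no pass on any. Smad6, an inhibitory SMAD of the BMP branch, changed by -0.75, with mouse differences between -1.45 and -0.31. It did not pass (limma adjusted p = 0.532, or 0.0937 with the block). Smad7, Smurf1 and Smurf2 changed by 0.05, -0.14 and 0.23.

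Tgfb1, the main TGF-beta isoform of blood cells, was slightly higher in 4 of 4 mice. It had log2 signals of 3.81, 3.64, 3.82 and 3.58 in Pcgf1 shRNA cells and 3.50, 3.38, 3.54 and 3.42 in Control shRNA cells. The groups did not overlap, but the change of 0.25 (SE 0.09) did not pass (limma adjusted p = 0.287, or 0.0918 with the block). With Ltbp3, Bmp1 and Acvr2b, 4 of the 29 genes were higher without overlap, 13.8%, where 4.22% of all genes above background on all 8 arrays were. Tgfb3 and Gdf15, a stress-induced cytokine, changed by -0.28 and 0.31 and did not pass. Eng, a TGF-beta co-receptor, and Fstl3, a follistatin-like binding protein, changed by -0.25 and -0.12, without a pass.

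The 11 genes with a probe that were not tested lacked a probe well above background on all 4 arrays of either group. Mstn, Bmpr1a, Bmpr1b, Fst and Smad9 were not above background on any array. By its brightest probe, Acvr1b was above it on 3 Pcgf1 shRNA arrays and 1 Control shRNA array, Ltbp1 on 3 arrays of each group, Inhbb on 2 of each and Tgfbr3 on 1 of each; a second Inhbb probe was above it on 1 Pcgf1 shRNA array and 3 Control shRNA arrays. Tgfb2 was above it on 1 Pcgf1 shRNA array and Inha on 1 Control shRNA array. No change is given for these genes.

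Direction was also compared within single mice. Of the 29 genes above background on all 8 arrays 10 were higher in 4 of 4 mice, 34.5%, where 15.6% of all such genes were, and 7 were lower in 4 of 4, 24.1%, where 16.1% of such genes were. Median differences over the 29 genes were 0.10, -0.08, -0.04 and 0.15 in mice 1 to 4. After the values were seen, the genes were counted whose difference was lowest in mouse 3, then in mouse 2, and higher in mice 1 and 4. The order was set from these same data, so the counts describe it and do not test it. This held for 9 of the 29, Inhba, Tgfb3, Ltbp2, Ltbp4, Tgfbr1, Fstl1, Smurf1, Ski and Skil, 31.0%, where 14.5% of all such genes showed that order. Pcgf1 itself was lowered by nearly the same amount in all 4 mice. The map of mouse differences shows these values.

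**Figure D3:**
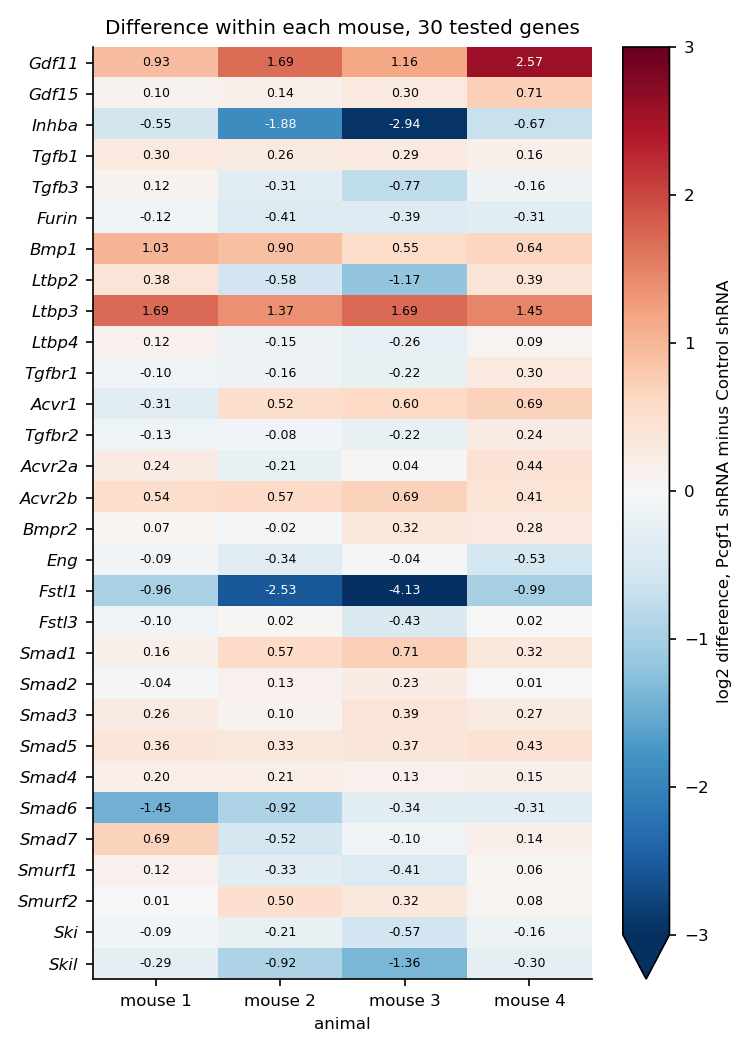
Log2 difference (Pcgf1 shRNA minus Control shRNA) within each mouse, 1 row per tested gene and 1 column per mouse, on a colour scale from blue (lower) to red (higher); values below -3 share the darkest blue. Ltbp3, Bmp1, Gdf11 and Acvr2b are red in all 4 columns, while Inhba and Fstl1 are darkest blue in mouse 3.

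Where a gene had several probes above background, those probes mostly moved together. The 10 such genes had 22 probes, and Ltbp3 was the one where a probe past the test stood beside a probe with a change near 0. Smad3 gave 0.26 and 0.76 on its 2 probes, Smad4 gave 0.17 and 0.37, and Tgfbr2 gave -0.05 and -0.12, with no pass.

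**Figure D4:**
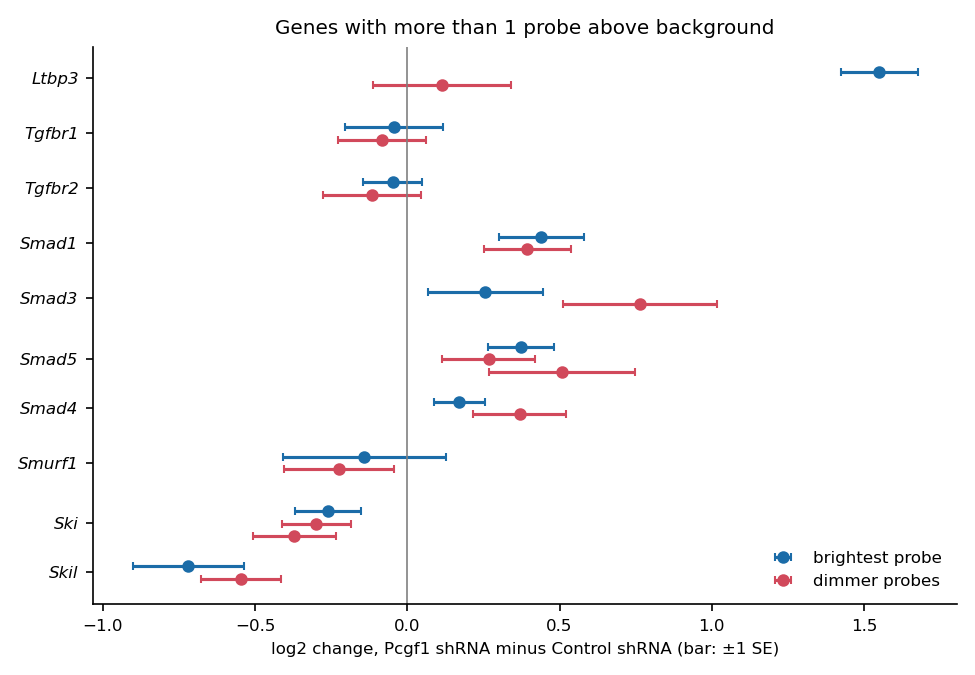
Log2 change (Pcgf1 shRNA minus Control shRNA, x axis) of each probe of the 10 genes with more than 1 probe above background, with bars of 1 SE from limma. Blue marks the brightest probe, which stands for the gene, and red marks dimmer ones; the Ltbp3 probes differ most.

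Beyond the 43 genes, 108 others of the pathway were counted, 103 had a probe and 63 were tested, in 5 lists. None rose or fell in limma without the block, while 4 were higher and 8 lower before adjustment at p below 0.05, together 19.0%, where 12.2% of all genes were. With mouse as a block 3 fell, 4.76%, where 2.42% of all genes did: Gdf3, a nodal-like ligand, by 0.99 on the log2 scale, and Id3 and Tgfbi, by 0.65 and 1.33. Of 15 tested known targets, 5 had positive and 10 negative changes, with a median of -0.46. Tgfbi, an extracellular matrix protein induced by TGF-beta, had log2 signals of 3.95, 3.84, 2.73 and 3.48 in Pcgf1 shRNA cells and 4.93, 4.98, 5.05 and 4.35 in Control shRNA cells. The groups did not overlap; limma's adjusted p was 0.0843 without the block and 0.0421 with it. Id3, an inhibitor of basic helix-loop-helix factors induced by BMPs, had -4.76, -4.93, -5.12 and -4.43 in Pcgf1 shRNA cells and -4.07, -4.24, -4.18 and -4.15 in Control shRNA cells, with adjusted p of 0.0936 and 0.0377 in limma without and with the block. Klf10, a zinc-finger factor induced by TGF-beta, changed by -0.45 (limma adjusted p = 0.0677, or 0.0536 with the block). Among targets named after their values were seen, Id2 changed by -0.71 and Id1 by 0.38, neither past either test. The order by mouse described above, set after values were seen, held for 7 of the 15 targets, 46.7%. It held for 14.5% of all genes above background on all 8 arrays. The other lists gave median changes of -0.18 for ligands, -0.09 for receptors and co-receptors, -0.14 for extracellular regulators and 0.07 for intracellular regulators. Their lowest p-values belonged to Bmp7 (-0.32), Amhr2 (-0.72), Bambi (0.39), Chrd (-0.20), Sost (-0.17), Tgif2 (0.46) and Eid2 (0.32), none past either test.

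**Figure D5:**
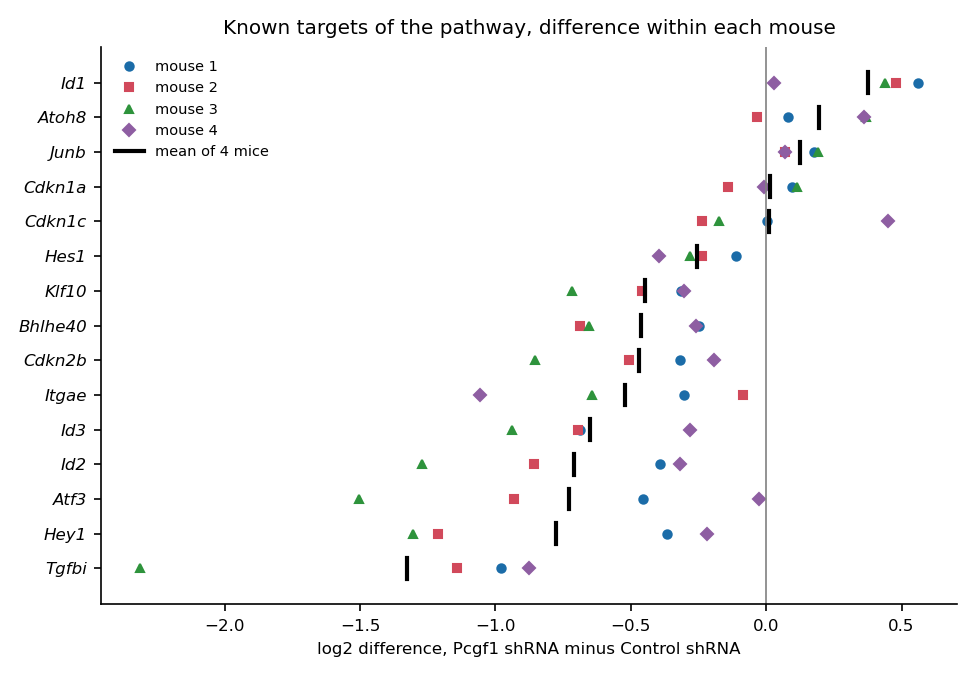
Log2 difference (Pcgf1 shRNA minus Control shRNA, x axis) of 15 known pathway targets within each mouse, 1 symbol and colour per mouse, with black bars at the mean of 4 mice. For 10 targets the mean lies below 0, and for Tgfbi, Hey1, Atf3 and Id2 the green triangle of mouse 3 is the lowest point.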

How the data were processed

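RNA from 8 cultures was hybridised to 8 one-colour Agilent arrays. Per the submitters' processing notes, Agilent Feature Extraction 10.1 was used; per the file headers, each deposited file holds the background-subtracted processed signal as an intensity per spot. The deposited value table holds log2 values from the authors. It followed the differences of the spot files with a slope of 1.00 and r of 1.00 over 14805 bright probes, with each probe's median at 0. Its column medians were 0.10, -0.05, -0.11 and -0.20 for Pcgf1 shRNA and 0.05, 0.11, 0.10 and -0.13 for Control shRNA, mice 1 to 4; its processing steps stay unknown.

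Log2 signals were centred on each array's 75th percentile over 43379 non-control spots. Non-uniform spots, 242 values, were left out, and spots of a probe were averaged. Genes were named through the accession column and RefSeq tables: 24367 of 41174 probes had 1 symbol and 16807 did not. Probes were kept if well above background on all 4 arrays of a group, 22745 in all, and the brightest stood for its gene. limma 3.58.1 in R 4.3.3 compared the groups over 17299 genes, with Benjamini-Hochberg adjustment and a threshold of 0.05, without a mouse block. The number in each label names the animal, so mouse pairs the cultures; deviations of paired cultures correlated at 0.44, 0.48, 0.41 and 0.64. Mice 1 and 2 shared a slide and a scan, as did mice 3 and 4, and each slide held both groups. The normal-exponential alternative used median spot signals, since the files hold no mean signal. The method was tested on simulated data with independent noise on each array. The simulation held no mouse or slide effect, so it does not cover the pairing of the cultures. All 43 genes are named, plus, from each other list, genes past either fit. From each of the 5 wider pathway lists the 2 genes with the lowest p are also named. The 43 genes and the lists were chosen with earlier results of these data known. A listed pathway target is not reported here and is left out of the counts of its list. The number of arrays limits the precision.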

Additional observations from a re-analysis of the deposited data

Results flagged for a closer look

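In 2 of 60 groups of 4 arrays, 1 array stood apart from the other 3, where chance sets apart about 1 in 20 groups. Both were the Control shRNA culture of mouse 4. Eng had a log2 signal of -0.0871 there, against -0.53 to -0.48 in the other Control shRNA cultures, with a gap of 0.89 of the group's range. Fstl1 had a log2 signal of -2.87 there, against -0.92 to -0.61 in the other Control shRNA cultures, with a gap of 0.86 of the range.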

How the results depend on the processing

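Slide as a block, quantile normalization, the authors' value table, the mean over a gene's probes and, chosen after seeing the data, leaving out population-outlier spots each kept the same 4 calls among the 43 genes. Requiring signal on all 8 arrays left Gdf11 untested and kept the other 3. The count of all genes called, 132, became 921 with mouse as a block, 77 with the normal-exponential correction, 0 with no filter on dim probes (2199 of 32969 at unadjusted p below 0.05) and 1655 with array weights. Pathway genes that rose, 4, became 1 with the normal-exponential correction and 0 without the filter. With array weights 8 of the 43 genes were called. Gdf11, Ltbp3, Bmp1, Acvr2b and Smad1 rose, 3 fell (Inhba, Skil and Fstl1) and the median change was -0.10. Of all 17299 genes, 965 rose and 690 fell with array weights. Wider pathway genes called, 0, became 3 with the mouse block, 1 with the slide block and 10 with array weights. The Pcgf1 change without the filter was -1.36 (limma adjusted p = 0.104). Of calls among the 43 genes, the mouse block changed Smad5 alone. Calls among all genes were 78.0% higher, against 54.6% with the block, 67.5% with the normal-exponential correction and 58.3% with array weights.

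Leaving out both arrays of a mouse gave 0 to 363 calls among all genes, 0 to 3 among the 43 and 0 to 2 among wider pathway genes, with Pcgf1 at -1.38 to -1.34 (limma adjusted p 0.0158 to 0.352). Leaving out 1 array gave 0 to 186, 0 to 4 and 0 to 1, with Pcgf1 at -1.44 to -1.28. With the mouse block and a mouse left out, the counts were 0 to 306 (284 without mouse 1), 0 to 2 and 0 to 1. Without mouse 2 no gene passed with or without the block, while 2434 and 999 were at unadjusted p below 0.05 in limma. Normal-exponential correction turned the sign of Tgfbr2 (0.00777), Acvr2a (-0.0528) and Smad7 (-0.11), and array weights that of Acvr2a (-0.15) and Smad7 (-0.13). Leaving out an array or a mouse turned it for Smad7 (-0.162 to 0.243), Ltbp2 (-0.468 to 0.0653), Ltbp4 (-0.111 to 0.0321), Tgfbr1 (-0.188 to 0.0568), Tgfbr2 (-0.144 to 0.00757), Smurf1 (-0.351 to 0.00131) and Gdf15 (-0.00591 to 0.499). Without mouse 3, with or without the mouse block, Ltbp4 was at 0.0225, Tgfbr1 at 0.0148 and Tgfbr2 at 0.00757, and without mouse 1 Smad7 was at -0.159. None of these passed a test, and the cause was not tested.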
